A study of Mus musculus with 6 samples.

Results

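Type I interferon-stimulated genes (ISGs) were followed in RNA from tumour-associated macrophages (TAMs), macrophages taken from a tumour, with and without the chemokine gene Ccl5. The set was a list of 36 named genes, matched by symbol to the 24391 genes of the count table. All 36 were found and all 36 passed the filter on low counts, which left 12710 genes. They were grouped by role as 28 effectors, 5 RNA sensors and 3 transcription factors.

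The cells came from colorectal tumours of BALB/C mice, either wild type (WT, Ccl5 intact) or CCL5-/-. TAMs labelled CD11bhi F4/80low, called F4/80low here, gave 2 WT and 2 CCL5-/- libraries with read counts. TAMs labelled CD11blow F4/80hi, called F4/80hi, gave 1 library labelled WT and 1 labelled CCL5-/-, with values in FPKM (fragments scaled by transcript length and library depth). The labels give no age, sex, tumour model or number of mice, and do not say how the Ccl5 allele was made or whether replicates were separate animals. Each p-value thus rests on library-to-library spread, part or all of which may be technical.

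Type I interferons are secreted when a cell senses foreign or misplaced nucleic acid. They bind the receptor made of Ifnar1 and Ifnar2, whose kinases Jak1 and Tyk2 activate STAT proteins, among them Stat2. Stat2 joins Irf9 in a complex that binds the interferon-stimulated response element (ISRE) in promoters and switches on genes that block viral RNA, proteins and budding. Macrophages are a main source of interferon and respond strongly to it. Irf7 and the RNA sensors are themselves induced, which lets the response feed forward.

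The libraries with the same replicate number resembled each other in depth and ribosomal RNA, and the F4/80hi libraries went against their labels, so each result is given by replicate pair. Total counts ran from 9280635 to 22411342. The ribosomal precursor Rn45s took 58.4% and 50.03% of the replicate 1 libraries (WT and CCL5-/-) and 0.844% and 1.38% of the replicate 2 libraries, leaving 3857011 to 22222208 counts for other genes. Ccl5 had 255 and 3976 reads in WT and 35 and 82 in CCL5-/-, as labelled, a log2 change of -4.64 (SE 0.69, edgeR unadjusted p = 0.00076, adjusted p = 1.0). Among the F4/80hi libraries it was at 15.7 FPKM in the one labelled WT and 145 FPKM in the one labelled CCL5-/-, against the labels, and the sample titles name the opposite genotype on each. With genotypes taken from the titles, the F4/80hi ratios of 3464 well-covered genes lay at a median distance of 0.0711 (log2) from those of the replicate 1 pair and 0.291 from those of the replicate 2 pair. Reads of 6154 genes split between the replicate 1 libraries more closely along the FPKM ratio (median chi-square 0.331) than independent reads give (0.455). The difference between the F4/80hi table and the replicate 1 libraries was thus less than the sampling noise, and they were counted as the same 2 libraries. Their labels name opposite gates, so the sorted population of the replicate 1 libraries is not settled. They are called F4/80low here as labelled, and any comparison of replicate 1 with replicate 2, or of the pairs, may be one of 2 populations. All 9 macrophage markers on the list were detected in each F4/80low library. Levels are given in CPM, read counts scaled to library size. Those of Adgre1, the F4/80 gene, were 35.6 and 51.8 in WT and 53.7 and 35.3 in CCL5-/-. Those of Itgam, the CD11b gene, were 598 and 180.4 in WT and 580.4 and 144 in CCL5-/-, higher in both replicate 1 libraries than in both replicate 2 libraries.

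Promoter sequences show what the members share beyond their names. RefSeq windows of 250 bases before to 50 bases after a gene start (GRCm38.p6) were found for 28 of the 36 members. The ISRE core was searched on both strands as 2 copies of GAAA on the same strand separated by any 2 bases, overlapping matches included. It was in the windows of 14 of 28 members (50%), against 3.99% of the 27025 genes with a window. The gamma-activated site, TTCNNNGAA, whose letters read alike on both strands, was in 7 of 28 (25%) against 9.55%. Members with the core had median log2 changes of 0.14 and -0.60 in the replicate 1 and 2 pairs, and those with a window but no core had 0.06 and -0.69. No entry was found for Oas2, Mx1, Mx2, Usp18, Rtp4, Parp14, Dhx58 and Zbp1. The 6 stretches below lie upstream of the gene start and hold the core and are shown because they come from members with large and small differences in the replicate 2 pair. Each is 60 bases, written on the gene's strand, with every complete match to the core in capitals.
Isg15, chr4:156200850-156200909, minus strand: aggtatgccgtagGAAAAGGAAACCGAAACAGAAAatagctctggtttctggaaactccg
Ifit1, chr19:34640779-34640838, plus strand: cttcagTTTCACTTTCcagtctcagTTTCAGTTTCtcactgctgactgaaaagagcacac
Rsad2, chr12:26456538-26456597, minus strand: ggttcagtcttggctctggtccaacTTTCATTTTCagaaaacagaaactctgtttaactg
Stat2, chr10:128270251-128270310, plus strand: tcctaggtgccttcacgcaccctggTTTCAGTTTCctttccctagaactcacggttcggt
Oas3, chr5:120777700-120777759, minus strand: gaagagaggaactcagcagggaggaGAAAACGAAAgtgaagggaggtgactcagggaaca
Oas1g, chr5:120887614-120887673, minus strand: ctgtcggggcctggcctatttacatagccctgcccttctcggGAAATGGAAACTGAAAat
Isg15, Ifit1 and Rsad2 were among the lowest in the replicate 2 pair, and Oas3 (-0.15) and Oas1g (-0.26) differed less there. The stretches were chosen to hold the core, which 14 of the 28 members with a window lack.

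Several members are neighbours in the genome (RefSeq, GRCm38.p6). Ifit1 (chromosome 19, 34640889 to 34650009), Ifit2 (34550550 to 34576534) and Ifit3 (34583119 to 34588982) lie in 1 cluster with other IFIT genes. Oas1a, Oas1g, Oas2 and Oas3 lie on chromosome 5 between 120730333 and 120907544, with Oasl1 and Oasl2 between 114896926 and 114937911. Mx1 and Mx2 are on chromosome 16 between 97447035 and 97560901. Oas1a and Oas1g, Ifit3, Trim30a and Phf11d have close copies, and how reads were divided among copies is not stated, so their values are uncertain.

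Levels per length spanned a wide range. Per kilobase of exon, Ifitm3, a membrane protein that blocks viral entry, was highest, with 373 and 636 CPM per kilobase in WT and 435 and 607 in CCL5-/-. Bst2, the tetherin that holds budding virus at the cell surface, followed with 150.1 to 352, and Isg15, a ubiquitin-like modifier, with 130.1 to 433, ranges that overlapped. Oasl1 (89.0 to 158) and Irf7 (50.1 to 84.1) came next. Mx2 had the lowest median, at 2.33 to 5.14, a range that overlapped those of Parp14, Mx1, Oas1g and Xaf1, and 27 members had a median under 15 CPM per kilobase.

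**Figure D1:**
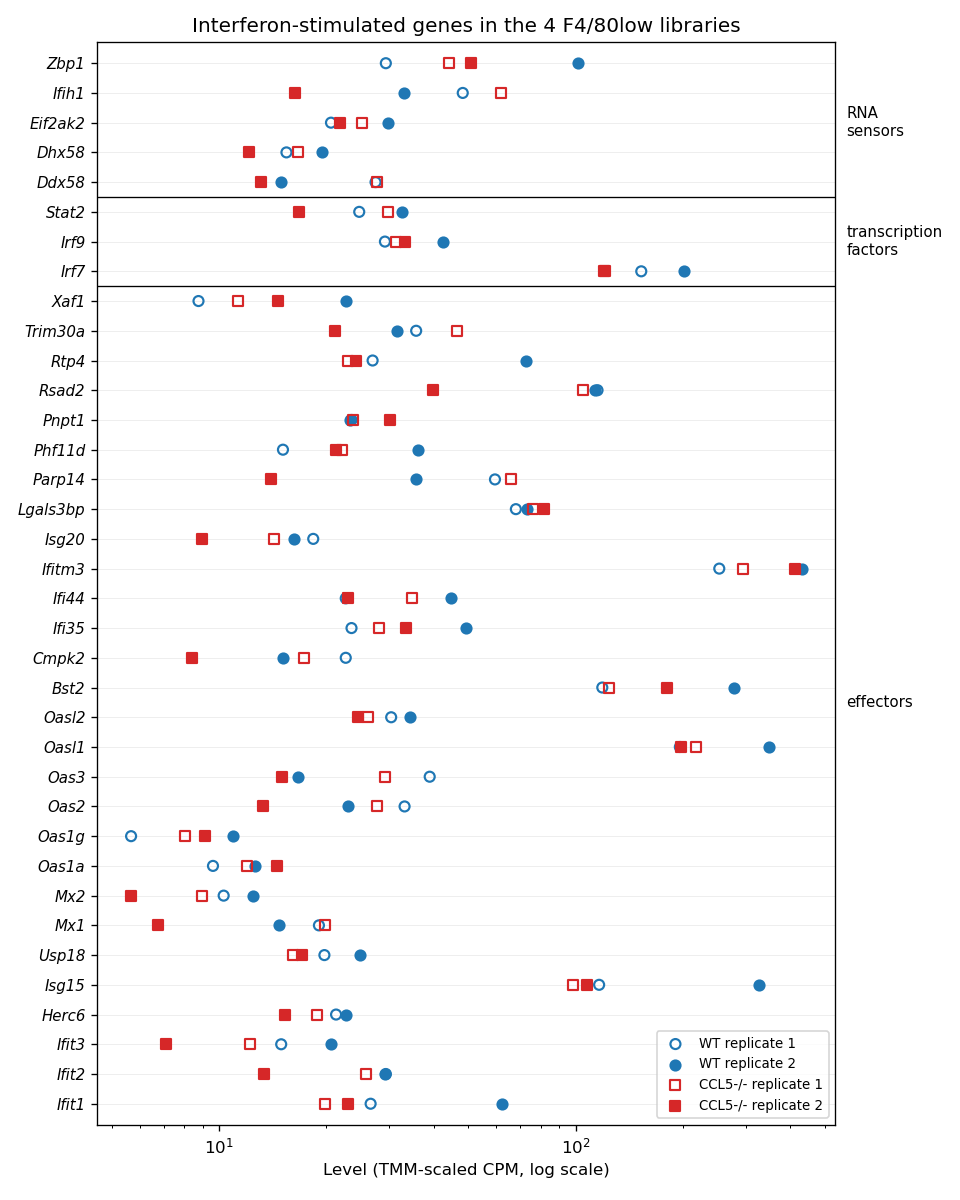
Level of each of the 36 members (x axis, TMM-scaled CPM on a log scale) in the 4 F4/80low libraries, grouped by role. Circles are WT, squares CCL5-/-, open symbols replicate 1 and filled symbols replicate 2. WT replicate 2 is the highest library for 22 members (25% of all genes), and CCL5-/- replicate 2 the lowest for 18 (27% of all genes).

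The first comparison asked whether ISG levels differed between CCL5-/- and WT F4/80low TAMs. No member passed the test. Of the 36, 0 had an adjusted p under 0.05 in edgeR's quasi-likelihood test, against 0% of the 12710 genes, and 0 had an unadjusted p under 0.05, against 0.323%. DESeq2 also called 0 members, against 0.00556% of 18000 genes. With replicate number added to the edgeR fit, 0 members passed. There 11 of 36 had an unadjusted p under 0.05, against 5.86% of all genes. Ifit1 had the lowest adjusted p (0.30, unadjusted 0.0022), and Isg15 had an unadjusted p of 0.013. On simulated data that fit made more false calls than the threshold allows for. The SE and p-values given below for genotype are from the fit without replicate number. The test had little power, since Ccl5 itself did not pass in edgeR, and the missing calls do not show that ISG levels were alike. The median log2 change of the members was -0.34, beside -0.01 over all genes tested, and ranged from -1.11 (Isg15) to 0.25 (Oas1a). In the authors' deposited table the members' log2 changes ran from -0.50 (Isg15) to 0.14 (Oas1a), with an adjusted p of 0.99992 for each, and of 18000 genes only Ccl5 had an adjusted p under 0.05.

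The replicate pairs differed from each other. In the replicate 1 pair the median change was 0.06 (all genes 0.01), with 15 members lower (49.3% of all genes were) and 21 higher in CCL5-/-. Of the 36, 0 were at least 2-fold lower, against 4.78% of all genes, and 0 at least 2-fold higher, against 3.95%. In the replicate 2 pair it was -0.76 (all genes -0.02), with 33 members lower, against 52.3% of all genes, and 3 higher. There 10 of 36 members were at least 2-fold lower, against 5.05% of all genes, and 0 were at least 2-fold higher, against 1.09%. The change was lower in the replicate 2 pair than in the replicate 1 pair for 34 of 36 members, against 51.6% of all genes. The counting interval held 0 for 24 members in the replicate 1 pair, and for 2 in the replicate 2 pair. With 1 library on each side of a pair these differences have no replicate check, and the difference between pairs was not tested. The fitted median of the members, -0.34, was -0.19 without WT replicate 2, also -0.19 without CCL5-/- replicate 2, and -0.51 without CCL5-/- replicate 1. In RNA from sorted populations, fewer cells of a type and less RNA per cell cannot be told apart.

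**Figure D2:**
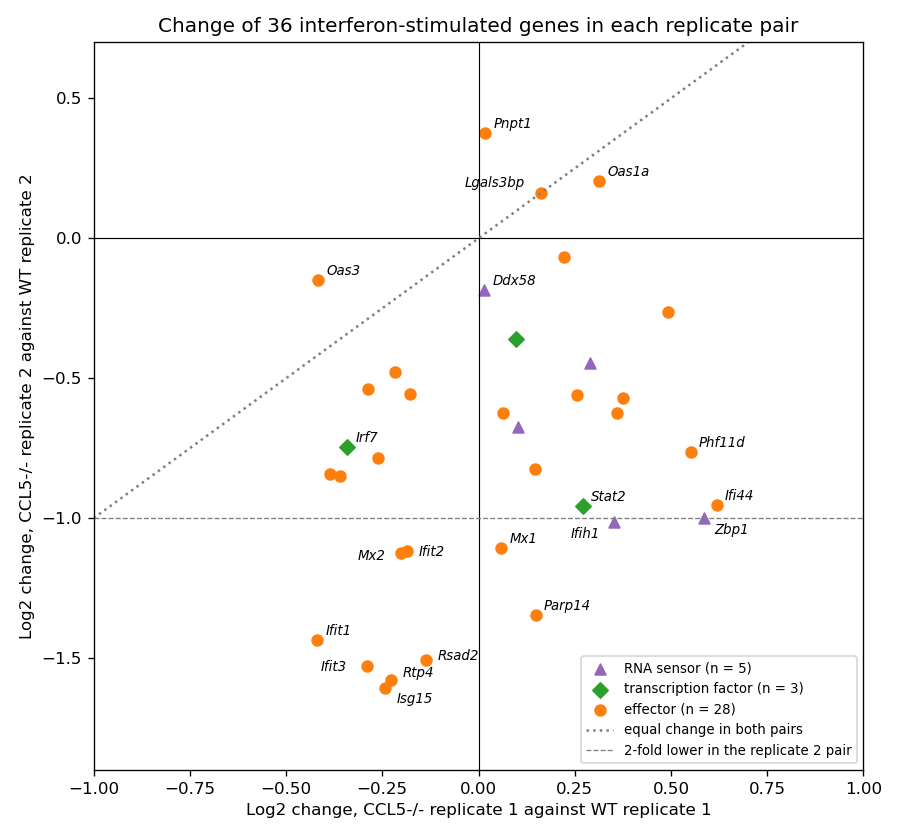
Log2 change of each member in the replicate 1 pair (x axis) plotted against that of the replicate 2 pair (y axis), coloured by role, with a dotted line for equal change and a dashed line at 2-fold lower. Isg15, Rtp4, Ifit3, Rsad2 and Ifit1 lie lowest, and Oas1a, Pnpt1 and Lgals3bp lie above 0 in both pairs.

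The IFIT proteins bind viral RNA with foreign caps and keep it from being translated. Ifit1 was at 26.6 and 62.3 CPM in WT (replicates 1 and 2) and at 19.9 and 23.0 CPM in CCL5-/-. WT replicate 2 stood 2.34 times above the next library, and the genotypes did not overlap. Its fitted log2 change was -1.06 (SE 0.50, edgeR unadjusted p = 0.085, adjusted p = 1.0), and without WT replicate 2 it was -0.31. The pairs gave -0.42 (95% counting interval -0.74 to -0.10) and -1.44 (-1.57 to -1.31). These intervals cover counting error only.

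Ifit3 was at 14.9 and 20.6 CPM in WT and 12.2 and 7.09 CPM in CCL5-/-, a log2 change of -0.90 (SE 0.44), which was -0.55 without CCL5-/- replicate 2, with -0.29 and -1.53 in the pairs. Ifit2 was at 29.4 and 29.2 CPM in WT and 25.8 and 13.4 CPM in CCL5-/-, a change of -0.58 (SE 0.44). For Ifit2 the WT libraries were level and CCL5-/- replicate 2 was low, and leaving out CCL5-/- replicate 2 gave -0.18. All 3 IFIT genes were lower in CCL5-/- without overlap between genotypes, as were 8.24% of all genes. The replicate 1 counting intervals of Ifit2 (-0.48 to 0.11) and Ifit3 (-0.72 to 0.13) held 0.

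Isg15 is attached to proteins by enzymes that include the ligase Herc6, and Usp18 removes it and dampens the receptor. Isg15 was at 116.5 and 327 CPM in WT and 98.3 and 107.4 CPM in CCL5-/-. Its log2 change was -1.11 (SE 0.59, edgeR unadjusted p = 0.11, adjusted p = 1.0), and it was -0.18 without WT replicate 2. WT replicate 2 was 2.81 times the next library. The pairs gave -0.24 (-0.39 to -0.10) and -1.61 (-1.67 to -1.55).

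Usp18 was at 19.8 and 24.8 CPM in WT and 16.2 and 17.0 CPM in CCL5-/-, with -0.29 and -0.54 in the pairs. Herc6 was at 21.3 and 22.6 CPM in WT and 18.8 and 15.4 CPM in CCL5-/-, with -0.18 and -0.56. Both were lower in CCL5-/- without overlap between genotypes, as were 8.24% of all genes. WT replicate 2 stood less far above the other libraries than for Isg15.

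Mx1 and Mx2 are dynamin-like GTPases that trap viral particles, and common inbred strains including BALB/c carry disrupted alleles. Mx1 was at 19.1 and 14.7 CPM in WT and 19.9 and 6.76 CPM in CCL5-/-, so that replicate 1 was level (0.06) and replicate 2 was 2.175-fold lower (-1.11). Mx2 was at 10.3 and 12.5 CPM in WT and 8.95 and 5.66 CPM in CCL5-/-, a log2 change of -0.65 (SE 0.43), which was -0.35 without CCL5-/- replicate 2, with -0.20 and -1.12 in the pairs.

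Active OAS enzymes sense double-stranded RNA and make the messenger that activates RNase L. As a group the OAS and OAS-like members differed less in the replicate 2 pair, with a median of -0.37. None of the 6 was at least 2-fold lower, but Oas2 and Oasl1 lay near the median of all members, -0.76. Oas1b, a further OAS gene that is not a member, was at least 2-fold lower in both pairs (-1.13 and -1.08). It had few reads, 29 and 164 in WT and 19 and 68 in CCL5-/-, did not pass, and was picked after its values were seen. Oas1a was at 9.62 and 12.6 CPM in WT and 12.0 and 14.5 CPM in CCL5-/-, with 0.31 and 0.21 in the pairs. Oas2 was at 33.2 and 23.0 CPM in WT and 27.7 and 13.3 CPM in CCL5-/-, with -0.26 and -0.78. Oas3, with 39.0 and 16.7 CPM in WT and 29.2 and 15.02 CPM in CCL5-/-, differed more between replicate numbers than between genotypes. Oasl2 was at 30.4 and 34.3 CPM in WT and 26.2 and 24.6 CPM in CCL5-/-, without overlap, with -0.22 and -0.48. Oas1g had 0.49 and -0.26, and Oasl1, which restrains Irf7 translation, had 0.15 and -0.82.

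Of the other 14 effectors, Rtp4 and Rsad2 differed most in the replicate 2 pair. Rtp4, an interferon-induced transporter protein, was at 27.0 and 72.6 CPM in WT and 23.0 and 24.2 CPM in CCL5-/-, a log2 change of -1.08 (SE 0.54). As with Isg15, WT replicate 2 stood alone, at 2.69 times the next library, and the change was -0.19 without it.

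Rsad2 encodes viperin, which makes a chain-terminating nucleotide. It was at 115.3 and 113.2 CPM in WT and 104.8 and 39.8 CPM in CCL5-/-, with -0.14 and -1.51 in the pairs. Its fitted change of -0.66 (SE 0.55) became -0.13 without CCL5-/- replicate 2 and -1.47 without CCL5-/- replicate 1. Here 3 libraries were level and CCL5-/- replicate 2 was low.

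Isg20, an exonuclease, was at 18.4 and 16.2 CPM in WT and 14.3 and 8.96 CPM in CCL5-/-, without overlap, with -0.36 and -0.85 in the pairs. Bst2 was at 118.9 and 278 CPM in WT and 124.1 and 180.3 CPM in CCL5-/-, with 0.06 and -0.63. Ifitm3 was at 253 and 431 CPM in WT and 295 and 412 CPM in CCL5-/-, with 0.22 and -0.07 in the pairs (the latter 0.013 when scaled by total counts without Rn45s). For Bst2 and Ifitm3 both replicate 2 libraries were above both replicate 1 libraries.

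Ifi44 had the highest change of the replicate 1 pair, 0.62, and a replicate 2 change of -0.95. Its levels were 22.7 and 44.7 CPM in WT and 34.9 and 23.1 CPM in CCL5-/-. Higher in CCL5-/- without overlap were 2 of the 36 members, against 8.36% of all genes, a share near the background. Pnpt1, a mitochondrial RNA exonuclease, was at 23.5 and 23.3 CPM in WT and 23.8 and 30.2 CPM in CCL5-/-. Lgals3bp, a secreted galectin ligand, was at 68.0 and 73.2 CPM in WT and 76.1 and 81.8 CPM in CCL5-/-, with 0.16 in each pair. The other 6 effectors (Cmpk2, Ifi35, Xaf1, Parp14, Trim30a and Phf11d) had changes between -0.39 and 0.55 in replicate 1 and between -1.34 and -0.56 in replicate 2.

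The RNA sensors differed between the pairs. All 5 were higher in CCL5-/- for replicate 1 (0.02 to 0.59) and lower for replicate 2 (-1.01 to -0.19), a pattern shared by 18 of 36 members and 25.8% of all genes. The counting intervals of Ddx58, Dhx58 and Eif2ak2 for replicate 1, and of Ddx58 for replicate 2, held 0. Zbp1, which binds Z-form nucleic acid and can start necroptosis, was at 29.4 and 101.5 CPM in WT and 44.2 and 50.8 CPM in CCL5-/-. The pairs gave 0.59 (0.32 to 0.86) and -0.998 (-1.09 to -0.91), just short of 2-fold in replicate 2.

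Ifih1, the long double-stranded RNA sensor MDA5, was at 48.3 and 33.1 CPM in WT and 61.6 and 16.3 CPM in CCL5-/-. CCL5-/- held both its highest and its lowest library, with 0.35 (0.14 to 0.57) and -1.01 (-1.18 to -0.85) in the pairs. Ddx58, the 5′-triphosphate RNA sensor RIG-I, was at 27.5 and 14.9 CPM in WT and 27.8 and 13.1 CPM in CCL5-/-, with 0.02 and -0.19 in the pairs, so that the replicate numbers were farther apart than the genotypes. Dhx58, the regulator LGP2, was at 15.5 and 19.5 CPM in WT and 16.6 and 12.2 CPM in CCL5-/-, lowest in CCL5-/- replicate 2. Eif2ak2, the kinase PKR that halts translation, was at 20.6 and 29.8 CPM in WT and 25.2 and 21.9 CPM in CCL5-/-.

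Among the transcription factors, Irf7, the factor that amplifies interferon production, did not overlap between genotypes. It was at 152.9 and 201.3 CPM in WT and 120.7 and 119.98 CPM in CCL5-/-, a log2 change of -0.56 (SE 0.39, edgeR unadjusted p = 0.21, adjusted p = 1.0), and -0.35 without WT replicate 2. The CCL5-/- libraries were level with each other, and the pairs gave -0.34 (-0.47 to -0.21) and -0.75 (-0.81 to -0.68). Irf9 was at 29.2 and 42.5 CPM in WT and 31.3 and 33.2 CPM in CCL5-/-, a change of -0.16 (SE 0.37) that was 0.14 without WT replicate 2. Stat2 was at 24.7 and 32.7 CPM in WT and 29.9 and 16.8 CPM in CCL5-/-, a change of -0.31 (SE 0.43), with 0.27 and -0.96 in the pairs and 0.052 when CCL5-/- replicate 2 was left out. Both overlapped between genotypes.

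In all, 12 members were lower in CCL5-/- without overlap, against 8.24% of all genes. They were the 3 IFIT genes, Isg15, Usp18 and Herc6, Irf7, Mx2, Oasl2, Isg20, Rsad2 and Rtp4, and held no RNA sensor. Of the 10 members chosen as at least 2-fold lower in the replicate 2 pair, WT replicate 2 was highest for 5 and CCL5-/- replicate 2 lowest for 7. The choice itself favours these places, so the shares of all genes (25% and 27%) are no background for them. The 5 with WT replicate 2 highest had 756 to 2656 bases of exon, and the other 5 had 3387 to 7417. Exon length also went with the difference between replicate numbers over all members, in the same libraries, as given below.

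The rest of the pathway was read from a list of interferon genes, receptors, signalling genes and further ISGs, and no member of it passed. Of the type I interferon genes on the list only Ifnb1 passed the low-count filter, with 46 and 532 reads in WT and 67 and 111 in CCL5-/-. Ifnb1, the interferon that starts the response in most cells, was at 7.90 and 17.5 CPM in WT and 7.79 and 4.08 CPM in CCL5-/-. Its changes were -0.02 (-0.58 to 0.55) and -2.07 (-2.41 to -1.80) in the pairs, and the fitted change was -1.13 (SE 0.58, edgeR unadjusted p = 0.10, adjusted p = 1.0). Ifna1 and Ifna5 had 0 reads, which allows levels of up to 0.0986 to 0.515 CPM (3 reads per library), and Ifna2, Ifna4 and Ifne had fewer than 10 in all.

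The receptor gene Ifnar1 was at 116.1 and 79.1 CPM in WT and 128.8 and 60.6 CPM in CCL5-/-, and Ifnar2 at 63.6 and 64.9 CPM in WT and 54.7 and 44.9 CPM in CCL5-/-. The changes of Ifnar1 were 0.15 and -0.39 in the pairs and those of Ifnar2 were -0.21 and -0.53. In the replicate 2 pair both receptor genes thus differed less between genotypes than Ifnb1 (-2.07). In the replicate 1 pair both changes lay inside the counting interval of Ifnb1 (-0.58 to 0.55).

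Of 21 signalling genes, 0 passed, with medians of 0.10 and -0.17 in the pairs. Irf1, an early target of interferon gamma, had 0.83 and -0.28 in the replicate 1 and 2 pairs. Irf3, which starts Ifnb1 transcription, was level within each pair at -0.05 and -0.03. Of 30 further ISGs 0 passed, and all 30 were lower in the replicate 2 pair, with a median of -0.56. For replicate 1, 14 were lower, with a median of 0.07. Cxcl10, a chemokine for T cells, had -0.14 and -0.27 in the replicate 1 and 2 pairs.

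Markers of NK and T cells were lower in CCL5-/- in the replicate 2 pair, as most members were. Summed over 7 of 7 natural killer (NK) cell markers, the level was 104.3 and 408 CPM in WT and 181.2 and 172.9 CPM in CCL5-/-. For the 7 of 10 T cell markers in the table it was 28.3 and 67.9 CPM in WT and 39.6 and 33.0 CPM in CCL5-/-. None of these markers was at 0 in all libraries. WT replicate 2 was thus highest for both lists, as for Isg15, Rtp4 and Ifit1. For Isg15, Rtp4 and Ifit1 the replicate 1 pair did not share this likeness. There 7 of 7 NK cell and 6 of 7 T cell markers were higher in CCL5-/-, while Isg15 (-0.24), Rtp4 (-0.23) and Ifit1 (-0.42) were lower. Of all 36 members, though, 21 were higher in that pair and 15 lower. As with most of these markers, 18 members were higher there and lower in the replicate 2 pair, against 25.8% of all genes. Ifng, the interferon made by NK and T cells, was at 1.72 and 10.7 CPM in WT and 1.86 and 4.19 CPM in CCL5-/-.

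The 9 macrophage markers summed to 3752 and 7491 CPM in WT and 5075 and 4685 CPM in CCL5-/-, also highest in WT replicate 2. Lyz2 held most of this sum, at 2115 and 5351 CPM in WT and 3159 and 3033 CPM in CCL5-/-. Taken singly, 5 of the 9 markers were highest in WT replicate 2. The 7 monocyte markers summed to 982 and 706 CPM in WT and 792 and 387 CPM in CCL5-/-. The sum was lowest in CCL5-/- replicate 2, as were 3 of the 7 taken singly. The 9 of 10 neutrophil markers in the table summed to 3517 and 527 CPM in WT and 666 and 308 CPM in CCL5-/-, a different order. Of the 7 markers listed for plasmacytoid dendritic cells, specialised interferon producers, Runx2 held most of the reads, at 63.2 and 26.8 CPM in WT and 52.9 and 25.6 CPM in CCL5-/-. The other 6 summed to 6.53 and 8.42 CPM in WT and 5.23 and 8.08 CPM in CCL5-/-. Their defining marker Siglech was under 1 CPM in each library, between 0.515 and 0.814. Hepatocyte markers (4 genes) summed to 103.7 CPM in CCL5-/- replicate 1 and to under 1 CPM in the other libraries. The part of these cell types in the ISG differences was not tested.

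**Figure D3:**
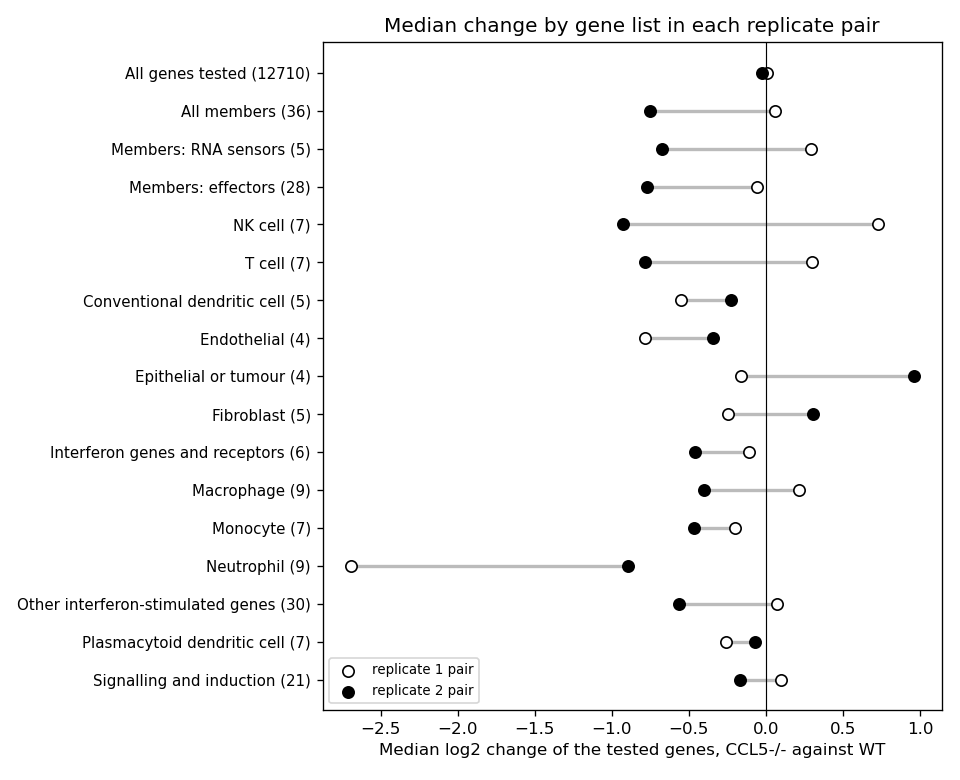
Median log2 change of the tested genes of each list (number in brackets) for the replicate 1 pair (open circles) and the replicate 2 pair (filled circles). The members go from 0.06 to -0.76, NK cell markers from 0.73 to -0.93 and neutrophil markers from -2.69 to -0.89, while all genes stay near 0.

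The second comparison was between replicate numbers, over both genotypes. It showed 10 of 36 members past the threshold, 3 higher and 7 lower in replicate 2, against 31.8% of all genes (13.9% higher and 18% lower). The share of members was thus near the background. Bst2 was higher in replicate 2 by a log2 difference of 0.88 (SE 0.25, edgeR adjusted p = 0.013), as were Xaf1 (0.85) and Ifit1 (0.72). Parp14, an ADP-ribosyltransferase, was lower by -1.48 (SE 0.35, edgeR adjusted p = 0.014), Ifih1 by -1.23, Oas3 by -1.09 and Ddx58 by -0.98. Mx1 (-0.96), Cmpk2 (-0.81) and Oas2 (-0.79) were lower as well.

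Exon length went with this difference. The 18 members with at most 2682 bases of exon had a median of 0.44 and 3 calls, all higher in replicate 2. The 18 longer members had a median of -0.57 and 7 calls, all lower. Spearman's rho between exon length and the replicate difference was -0.72 over the 36 members and -0.52 over all genes with a length, both from the same 4 libraries. All genes split at the same length had medians of 0.43 (4803 genes) and -0.29 (7458 genes). The changes between genotypes did not split by length in this way. The shorter members had medians of 0.08 and -0.71 in the replicate 1 and 2 pairs, and the longer ones 0.04 and -0.77. Rn45s took a larger share of the replicate 1 libraries, and its part in the length difference was not tested.

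**Figure D4:**
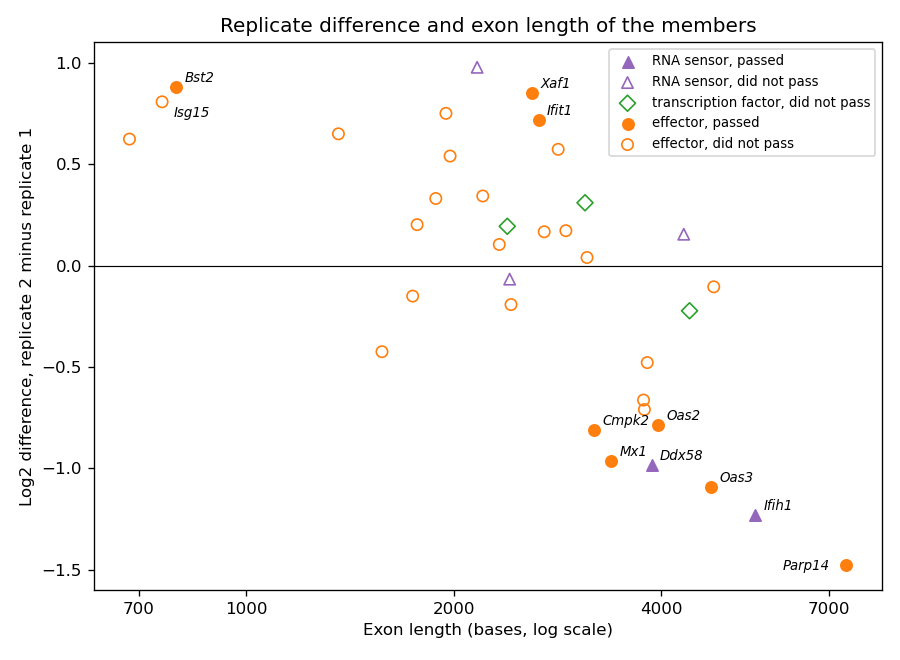
Log2 difference of replicate 2 against replicate 1 (y axis) by exon length in bases (x axis, log scale) for the 36 members, with filled symbols for those that passed the edgeR test. The 3 calls above 0 are shorter than 2682 bases, and the 7 below 0 are longer.

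The F4/80hi table listed 35 of the 36 members, all with FPKM of at least 1. Between the library labelled CCL5-/- and the one labelled WT, 0 of 35 differed by 2-fold or more, against 3.92% of 11670 genes, and 19 were higher and 16 lower. The median log2 difference was 0.04, with ends at -0.60 for Zbp1 (37.9 FPKM in the library labelled CCL5-/- and 58.1 in the one labelled WT) and 0.55 for Ifit1 (18.5 and 12.3 FPKM). Isg15 was at 236 and 200.5 FPKM and Irf7 at 92.9 and 73.1 FPKM, in the same order. Changes are on the log2(FPKM + 1) scale, which understates those of low genes.

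With genotypes from the titles, which Ccl5 follows, 16 members were higher and 19 lower in CCL5-/-, with a median of -0.04, and Ifit1 was lowest (-0.55) and Zbp1 highest (0.60). These differences had the sign of the replicate 1 pair for 31 of 35 members. They lay closer to that pair than to the replicate 2 pair for 34 of 35. The median member lay 0.0760 (log2) from its replicate 1 change and 0.763 from its replicate 2 change. The F4/80hi table therefore adds no library to the replicate 1 pair, and the larger differences of the replicate 2 pair rest on 1 WT and 1 CCL5-/- library.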

How the data were processed

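The authors deposited raw read counts per gene for the 4 F4/80low libraries, per the file headers. They also deposited those counts divided by 1 size factor per library (a normalised signal), with their log2 fold change, p-value and adjusted p-value. For the F4/80hi libraries the deposited values are FPKM with bounds, and their depth is unknown. The tools named are Cufflinks 2.2.1, TopHat2 2.1.1, bcl2fastq 2.17.1.14, HTSeq, STAR, DESeq2, cutadapt and FastQC, per the submitters' processing notes. No source used here gives the tool behind each table. Loci of the FPKM table overlapped GRCm38 genes for 99.0% of 20720 symbols. RNA was extracted with Trizol and libraries made with a TruSeq kit, per the labels' protocols. Strand use is not given, so overlapping genes cannot be separated.

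Counts were fitted over all genes with the robust quasi-likelihood test of edgeR 4.0.16 (R 4.3.3, TMM factors, filterByExpr, two-sided) and Benjamini-Hochberg adjustment at 0.05. Genotype was the only term of the first comparison, and replicate differences came from a fit with genotype and replicate number. SE is the log2 change divided by the square root of F. CPM are TMM-scaled, and pair changes use a prior count of 2. Counting intervals are exact binomial (Clopper-Pearson, 95%). FPKM were compared as log2(FPKM + 1) over genes with at least 1 FPKM. Exon lengths are from GENCODE M21. Alternatives used DESeq2 1.42.0 and limma 3.58.1, other factors, filters and pseudocounts, and fits without each library. Genotype fits were tested on simulated data that carried the replicate difference of these libraries. The test of replicate number was tried on simulated data in which only the changes put in differed between replicate numbers. Sizes of changes were recovered, but the genotype fit without replicate number called none of the changes put in, so its lack of calls does not show that levels were alike. The fits with replicate number called most of them, with more false calls than the threshold allows for.

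The members, lists and rules were chosen with earlier results of these data known. A set of 21 members was named whatever their values. Named as well were members called in either genotype fit, members whose genotypes did not overlap, and the 2 highest and 2 lowest of each pair. Values of other members were chosen after being seen. No sample was left out. A signalling gene is not reported here.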

Additional observations from a re-analysis of the deposited data

How the results depend on the processing

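No member passed for genotype in any of the 12 fits run. With the number as a replicate block, edgeR called 0 members (lowest adjusted p 0.30), with a median change of -0.34, and DESeq2 and limma-voom also called 0. At an unadjusted p under 0.05 these fits had 11, 6 and 12 of 36 members, against 5.86%, 2.47% and 8.13% of all genes. The labels do not say that a number pairs libraries. Deviations of same-numbered libraries from their genotype means correlated over genes (r = 0.728). With 2 replicates per group both pairs give this same value, and it does not show what a number stands for. Over all genes the calls were 0 without and 10 with the block in edgeR, 1 and 23 in DESeq2, 31 in limma-voom with it, and 0 to 4 when 1 library was left out. The median change of the members stayed below 0, from -0.51 to -0.19 over the fits that left out 1 library. Stat2 ranged from -0.73 to 0.052 in those fits and Irf9 from -0.38 to 0.14, so that 1 library turned the direction of each. The count of members at least 2-fold lower in the replicate 2 pair was 10 and became 6 with a pseudocount of 5 CPM, which shrinks changes of low genes by construction. It was 9 or 10 under the other settings, and members lower there numbered 32 or 33. Total counts without Rn45s moved the median of all genes by over 0.1 in the replicate 1 pair (to 0.12), where the members' median was 0.18. For replicate numbers the 10 calls became 5 with genotype left out of the fit and 8 in DESeq2, and each of these fits kept 5 of the 10. They became 13 with RLE in place of TMM factors and 12 without Rn45s, and both of those fits kept all 10. Fits of that comparison without 1 library have no residual degrees of freedom and were not run. Depth limits the replicate 1 pair most: its counting intervals are wider than those of the replicate 2 pair.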
